A study of Mus musculus with 6 samples.

Results

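The expression of 34 genes of glycolysis and of the hypoxia response was followed in embryonic stem (ES) cells of the mouse and in FLICs, cells derived from them, with and without OHT. The genes are a fixed list of glycolytic enzymes, sugar and lactate carriers, the oxygen sensors of the HIF pathway and known HIF targets, matched by symbol, and all 34 were found among the 22600 genes of the count table. The rule uses no measured value, but the genes were chosen with earlier results of these data known. The grouping by role used below was made after the values were seen. Each of the 34 passed the filter on low counts and was tested.

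Glycolysis breaks glucose down to pyruvate in the cytosol. Pyruvate is then either reduced to lactate and exported or passed to the mitochondria. Pluripotent stem cells are known for a strong use of this route even when oxygen is present. HIF1A is the transcription factor of the hypoxia response: with oxygen, the prolyl hydroxylases encoded by the Egln genes mark it for destruction, and without oxygen it binds DNA with ARNT and raises genes of glucose uptake, glycolysis, lactate export, blood vessel growth and collagen modification. Egln3 and several glycolytic genes are themselves HIF targets, and HIF1A is controlled mostly at the protein level, which RNA counts do not show.

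All cells had the C57BL/6 background and were grown for 96 h at 5% CO2. Untreated ES cells (2 libraries) and untreated FLICs (1 library) are labelled wild-type. OHT-treated ES cells (2 libraries) and OHT-treated FLICs (1 library) received OHT for 3 days and are labelled TRF2-/-, that is, lacking the telomere-binding protein encoded by Terf2. OHT (hydroxytamoxifen) is commonly used to switch on a Cre recombinase, but the labels name neither the recombinase nor its promoter, nor whether a group was 1 clone. No group received OHT while keeping TRF2, so OHT and the loss of TRF2 cannot be told apart. The labels do not say whether a group's libraries are separate cultures. Its p-values therefore reflect the spread between these libraries alone, which may be technical.

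Total counts ran from 23534551 to 43965309 per library, and a count of 0 would allow at most 0.0686 to 0.118 CPM (3 counts scaled, like all CPM here, to the library's total times its TMM factor). Terf2 followed the labels in each library, at 18.3 and 19.5 CPM in untreated ES cells, 0.281 and 0.392 CPM with OHT, and 8.27 and 0.114 CPM in the untreated and the OHT-treated FLICs library. The 8 pluripotency markers summed to between 3575 and 4043 CPM in ES cells and to 135 and 77.3 CPM in FLICs, where Zfp42 had no count. The 9 fibroblast markers summed to between 8.44 and 13.3 CPM in ES cells and to 1158 and 1975 CPM in FLICs, led by collagens, while Thy1 and Pdgfra were below 1 CPM in FLICs. The OHT-treated ES cell libraries stood further apart than the untreated ones (chi-square per degree of freedom 66.3 against 13.2), and Trp53 was at 8.39 CPM in the first and 83.1 CPM in the second. Trp53 with Ccng1, Mdm2 and Cdkn1a summed to 794 and 886 CPM in untreated ES cells and to 152.5 and 767 CPM with OHT. Of the 34 genes, 7 differed by 1.5-fold or more between the OHT-treated ES cell libraries, and all 34 differed by less than that between the untreated ones.

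Promoter sequences are shown for 4 genes picked among those that held ACGTG, a core at which HIF is known to bind DNA. Other forms of the core were not searched or marked. Windows of 250 bases before to 50 bases after annotated start sites were taken from RefSeq (GRCm38.p6), and the core was searched on either strand, with the palindrome CACGTG counted as 1 place. Windows were found for 31 of the 34 genes. The core occurred in 22 of the 31 (71.0%), against 27.8% of the 11924 tested genes with a window. The list was made of glycolytic genes and known HIF targets, so this share is no independent result. The 31 genes had 48 windows and the 11924 had 15134, so a match in any window had more places to occur per listed gene. Counted by window, it occurred in 25 of 48 (52.1%), against 24.1% of the windows of tested genes and 19.6% of all 32851 windows of that length. By their difference between untreated FLICs and ES cells, the genes with the core were 9 of 16 of those called lower, 5 of 7 of those called higher and 8 of 8 of those not called. The windows of Pfkp, Pfkl, Gpi1, Kdm3a, Eno1, Eno2, Tpi1, Ldhb and Pdk1 held no core. The 250 bases before the start are printed 5′ to 3′ on the gene's strand, with each core in capitals. Slc16a3, the lactate exporter gene at chr11:120948817-120949066 (+ strand), held 2 places. Ldha, encoding the lactate dehydrogenase subunit that favours lactate formation, at chr7:46845554-46845803 (+ strand), held 3. P4ha2, a collagen prolyl hydroxylase gene at chr11:54100674-54100923 (+ strand), and Egln3 at chr12:54203875-54204124 (- strand) held 1 each. A match is a description of letters, not a measured binding site.
Slc16a3: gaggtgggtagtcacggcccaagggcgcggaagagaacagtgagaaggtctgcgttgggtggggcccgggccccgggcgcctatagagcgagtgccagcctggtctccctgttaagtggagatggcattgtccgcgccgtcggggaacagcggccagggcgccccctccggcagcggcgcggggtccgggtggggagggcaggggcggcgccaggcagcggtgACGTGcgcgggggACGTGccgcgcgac
Ldha: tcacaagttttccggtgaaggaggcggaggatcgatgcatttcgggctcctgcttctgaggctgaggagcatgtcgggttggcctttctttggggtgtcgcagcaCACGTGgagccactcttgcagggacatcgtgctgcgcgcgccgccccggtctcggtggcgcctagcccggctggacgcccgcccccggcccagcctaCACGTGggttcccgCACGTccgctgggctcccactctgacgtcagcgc
P4ha2: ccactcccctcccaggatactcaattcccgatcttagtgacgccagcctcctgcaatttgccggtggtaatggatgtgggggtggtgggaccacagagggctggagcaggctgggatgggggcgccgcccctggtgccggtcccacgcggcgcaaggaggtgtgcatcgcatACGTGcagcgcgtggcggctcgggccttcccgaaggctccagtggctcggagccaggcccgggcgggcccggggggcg
Egln3: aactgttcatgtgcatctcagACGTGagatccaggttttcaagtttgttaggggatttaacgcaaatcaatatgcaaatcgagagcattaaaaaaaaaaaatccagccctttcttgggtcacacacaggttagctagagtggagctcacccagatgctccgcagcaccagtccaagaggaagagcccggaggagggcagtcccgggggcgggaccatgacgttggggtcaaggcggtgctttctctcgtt

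Between untreated FLICs and untreated ES cells, where fewer cells of a type and less RNA per cell cannot be told apart, genes of glucose uptake, glycolysis and lactate handling were mostly lower in FLICs, and the HIF prolyl hydroxylase genes Egln1 and Egln3 and several HIF targets were higher. Of the 34 genes, 25 were called, 17 lower and 8 higher (edgeR quasi-likelihood test, Benjamini-Hochberg adjusted p under 0.05), where 54.9% of all tested genes were called (28.7% lower, 26.2% higher). The median log2 fold change was -0.70, against -0.11 over all tested genes. By role, 2 of 2 glucose transporters, 8 of 15 glycolytic enzymes and 5 of 5 genes of lactate and pyruvate handling were called lower, and 2 enzymes were called higher. In the hypoxia genes, 2 of 3 of HIF1A and its hydroxylases and 4 of the 9 other targets were called higher, and 2 targets lower. The 15 enzymes summed to 8807 and 8250 CPM in untreated ES cells and to 4406 CPM in untreated FLICs. Pkm was the largest part of this sum, with 3819 and 3443 CPM in untreated ES cells and 1706 CPM in untreated FLICs. Reads given to near-copies such as Eno1b are not in the sum.

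**Figure D1:**
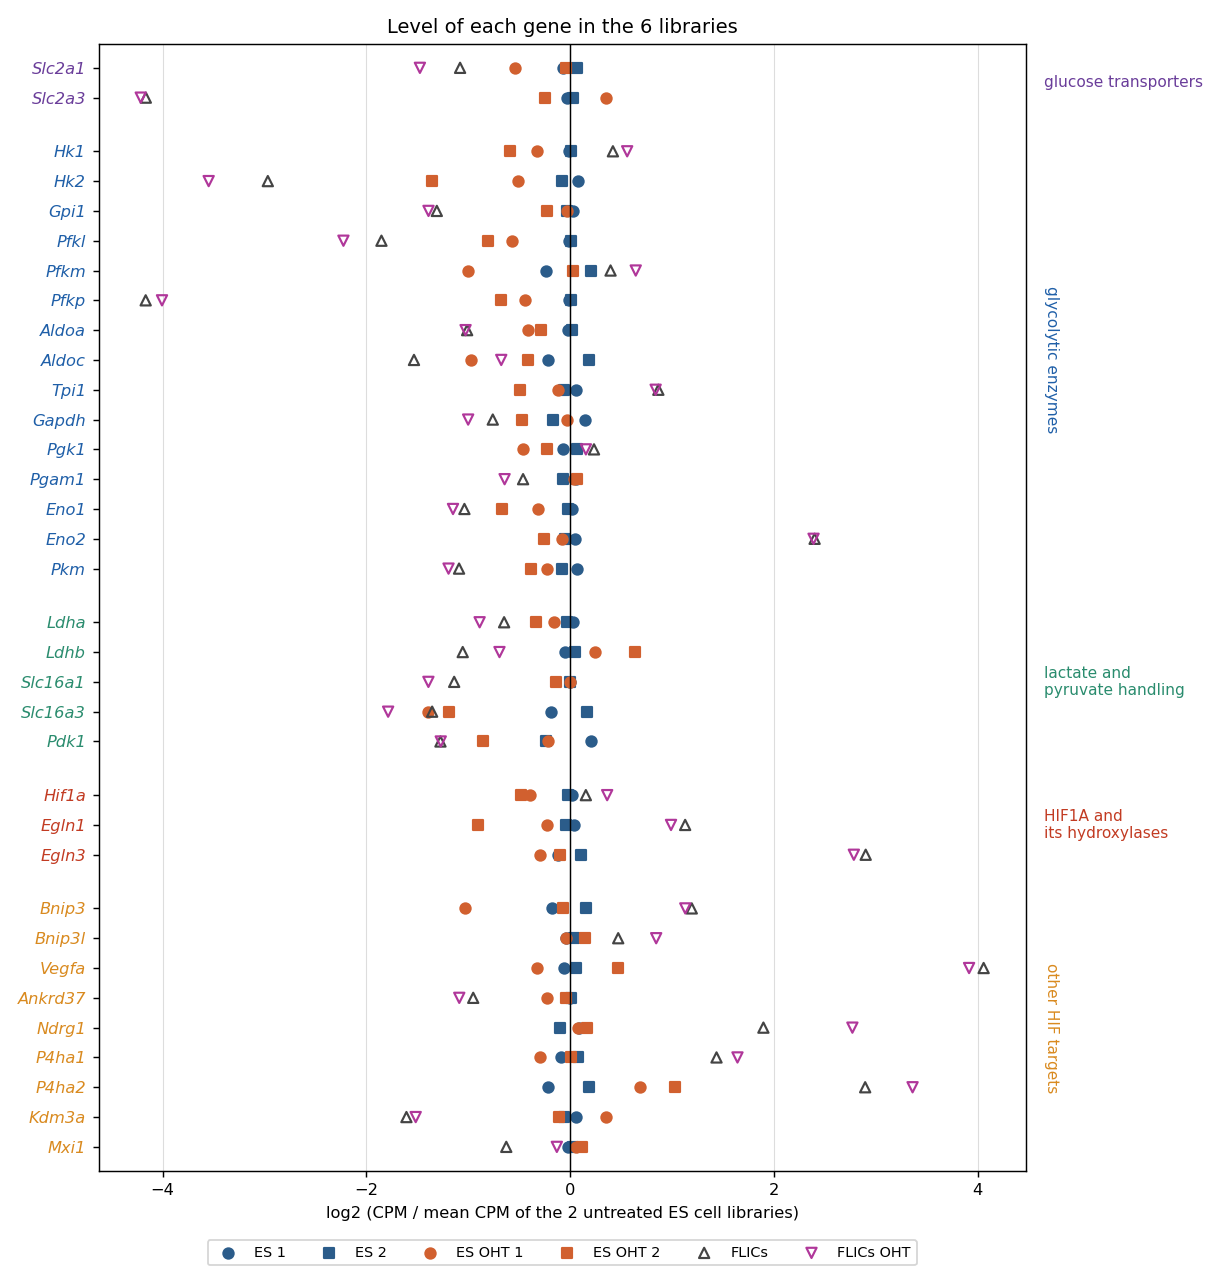
Level of each of the 34 genes in the 6 libraries, as log2 of its CPM over the mean of the 2 untreated ES cell libraries (x axis), grouped by role. Each point is 1 library, and the FLICs libraries (triangles) lie furthest left for Slc2a3 and Pfkp and furthest right for Vegfa.

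Glucose enters these cells through carriers of the GLUT family. Positions are those of GENCODE on GRCm38. Slc2a3 (ENSMUSG00000003153, chromosome 6, 122727809 to 122801640), which encodes the high-affinity carrier GLUT3, was at 533 and 555 CPM in untreated ES cells, 694 and 458 CPM with OHT, and 30.3 and 29.3 CPM in the untreated and the OHT-treated FLICs library. Both FLICs libraries were far below each ES cell library, and the OHT-treated ES cells lay on either side of the untreated ones. The log2 fold change of untreated FLICs over ES cells was -4.16 (SE 0.34, edgeR adjusted p = 0.000313). Slc2a1, encoding the widespread carrier GLUT1, was at 238 and 261 CPM in untreated ES cells and 118 CPM in untreated FLICs, which is -1.08 on the log2 scale (SE 0.26, edgeR adjusted p = 0.0157). Per kilobase of gene length, Slc2a1 made up 31.7% and 32.9% of the 2 carriers in untreated ES cells and 80.2% in untreated FLICs.

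Among the enzymes, Pfkp and Hk2 had the largest differences. Pfkp (ENSMUSG00000021196, chromosome 13, 6579768 to 6648777), the platelet-type isoenzyme of phosphofructokinase, was at 238 and 242 CPM in untreated ES cells, 177 and 150 CPM with OHT, and 13.4 and 14.9 CPM in the untreated and the OHT-treated FLICs library. All 4 ES cell libraries were above both FLICs libraries, and the log2 fold change without OHT was -4.17 (SE 0.23, edgeR adjusted p = 9.4e-05). Hk2 (chromosome 6, 82725025 to 82774454), a hexokinase of the first step, was at 481 and 432 CPM in untreated ES cells, 321 and 179 CPM with OHT, and 58.4 and 39.0 CPM in FLICs. Its log2 fold change without OHT was -2.97 (SE 0.41, edgeR adjusted p = 0.00202). Also called lower were Pfkl, the liver-type phosphofructokinase (-1.85 on the log2 scale), Aldoc, a minor aldolase (-1.53), and Gpi1, phosphoglucose isomerase (-1.31). Pkm, pyruvate kinase, measured 3819 and 3443 CPM in untreated ES cells and 1706 CPM in untreated FLICs, or -1.09 on the log2 scale (SE 0.20, edgeR adjusted p = 0.00566). Eno1, an enolase, and Aldoa, the main aldolase, had log2 fold changes of -1.04 and -1.01.

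The enzymes did not share a direction. Eno2, the enolase known from neurons, was at 2.42 and 2.26 CPM in untreated ES cells, 2.21 and 1.96 CPM with OHT, and 12.4 and 12.3 CPM in FLICs. Every FLICs value was above every ES cell value, with a log2 fold change of 2.40 without OHT (SE 0.23, edgeR adjusted p = 0.000536). Tpi1, triose phosphate isomerase, was at 220 and 201 CPM in untreated ES cells and 384 CPM in untreated FLICs (log2 fold change 0.87, SE 0.21, edgeR adjusted p = 0.0160). Hk1, Pfkm, Pgk1, Pgam1 and Gapdh were not called, with log2 fold changes from -0.76 to 0.42. Gapdh, often used as a reference gene, measured 627 and 502 CPM in untreated ES cells and 334 CPM in untreated FLICs (log2 fold change -0.76, edgeR adjusted p = 0.0530).

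The 5 genes of lactate and pyruvate handling were each called lower in untreated FLICs. Slc16a3 (ENSMUSG00000025161, chromosome 11, 120948480 to 120960868), encoding the lactate exporter MCT4, was at 36.9 and 46.9 CPM in untreated ES cells and 16.4 CPM in untreated FLICs, which is -1.35 on the log2 scale (SE 0.24, edgeR adjusted p = 0.00510). Slc16a1, encoding the lactate and pyruvate carrier MCT1, was at 152 and 152 CPM in untreated ES cells and 69.1 CPM in untreated FLICs (log2 fold change -1.14). Pdk1, a kinase that keeps pyruvate out of the citric acid cycle, had -1.27, Ldhb -1.05 and Ldha -0.65. Ldha measured 1041 and 997 CPM in untreated ES cells and 651 CPM in untreated FLICs.

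The oxygen sensor genes Egln1 and Egln3 were called higher in FLICs without OHT, and the Hif1a transcript was not called. Egln2, encoding the third HIF prolyl hydroxylase and not among the 34 genes, was at 96.1 and 87.2 CPM in untreated ES cells and 77.8 CPM in untreated FLICs, and was not called (log2 fold change -0.24, edgeR adjusted p = 0.356). Egln3 (chromosome 12, 54178981 to 54203860), encoding the hydroxylase PHD3, was at 1.59 and 1.86 CPM in untreated ES cells, 1.40 and 1.61 CPM with OHT, and 12.9 and 11.9 CPM in FLICs. The FLICs values were above each ES cell value, with a log2 fold change of 2.90 without OHT (SE 0.25, edgeR adjusted p = 0.000350). Egln1, encoding PHD2, was at 31.7 and 30.1 CPM in untreated ES cells and 67.6 CPM in untreated FLICs (log2 fold change 1.13, SE 0.27, edgeR adjusted p = 0.0162). Hif1a (ENSMUSG00000021109, chromosome 12, 73901375 to 73947530) was at 210 and 204 CPM in untreated ES cells and 230 CPM in untreated FLICs, with a log2 difference of 0.15 (SE 0.16, edgeR adjusted p = 0.450).

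Of the other HIF targets, Vegfa (ENSMUSG00000023951, chromosome 17, 46016993 to 46032369), the growth factor of blood vessels, differed most. It was at 6.59 and 7.16 CPM in untreated ES cells, 5.49 and 9.53 CPM with OHT, and 115 and 104 CPM in the untreated and the OHT-treated FLICs library. The groups did not overlap by cell type, and the log2 fold change without OHT was 4.06 (SE 0.31, edgeR adjusted p = 0.000244). P4ha2 and P4ha1 encode catalytic subunits of the enzyme that hydroxylates proline in collagen. P4ha2 (chromosome 11, 54100095 to 54131665) was at 7.58 and 10.0 CPM in untreated ES cells and 65.6 CPM in untreated FLICs (log2 fold change 2.89, SE 0.24, edgeR adjusted p = 0.000311), and P4ha1 at 29.0, 32.6 and 83.3 CPM in the same libraries (log2 fold change 1.44). Ndrg1, a stress-responsive gene, was at 6.75 and 5.94 CPM in untreated ES cells, 6.71 and 7.10 CPM with OHT, and 23.6 and 43.3 CPM in FLICs. Its log2 fold change without OHT was 1.90 (SE 0.19, edgeR adjusted p = 0.000654).

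HIF1A is also known to raise genes of glucose uptake, glycolysis and lactate export, which were grouped here under other roles. Of the 22 enzymes, carriers and Pdk1, 15 were called lower and 2 higher in untreated FLICs. The 9 other HIF targets were not all higher either, with 4 called higher and 2 lower. Kdm3a, a histone demethylase, was at 360 and 331 CPM in untreated ES cells and 114 CPM in untreated FLICs (log2 fold change -1.61, SE 0.25, edgeR adjusted p = 0.00351). Mxi1, a partner of MAX that opposes MYC, was called lower at -0.63, a call lost with DESeq2 (adjusted p = 0.122), with scaling by total counts, with no count filter, with the replicate number as a block and without either untreated ES cell library, with adjusted p up to 0.289 when a library was left out. The mitophagy receptors Bnip3 (1.19) and Bnip3l (0.47) and the ankyrin-repeat gene Ankrd37 (-0.95) were not called.

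The FLICs contrasts rest on 1 FLICs library per condition, assumed to vary like the ES cell libraries. All 8 pluripotency markers were called lower in FLICs and of 8 tested fibroblast markers 6 were called higher and 2 (Thy1 and Pdgfra) lower. Primitive endoderm markers summed to 5.00 and 5.19 CPM in untreated ES cells and to 182 CPM in untreated FLICs (3 of 5 called higher, 2 lower), and trophoblast markers to 94.0, 98.3 and 24.2 CPM (4 of 5 called lower). The part of these markers in the differences was not tested. Of the 25 calls, 14 (6 higher, 8 lower) held with each ES cell library left out in turn and in every other setting tried: Pfkp, Slc2a3, Hk2, Pfkl, Gpi1, Slc16a1, Slc16a3, Kdm3a, Vegfa, P4ha2, P4ha1, Egln3, Ndrg1 and Eno2. The other 11, among them Slc2a1, Pkm, Aldoa, Eno1, Ldha, Ldhb, Pdk1, Tpi1 and Egln1, were lost without untreated replicate 1 or 2, where 17 and 16 of the 34 genes and 34.6% and 34.8% of all tested genes were called. With a library left out, the adjusted p of Ldha reached 0.214.

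**Figure D2:**
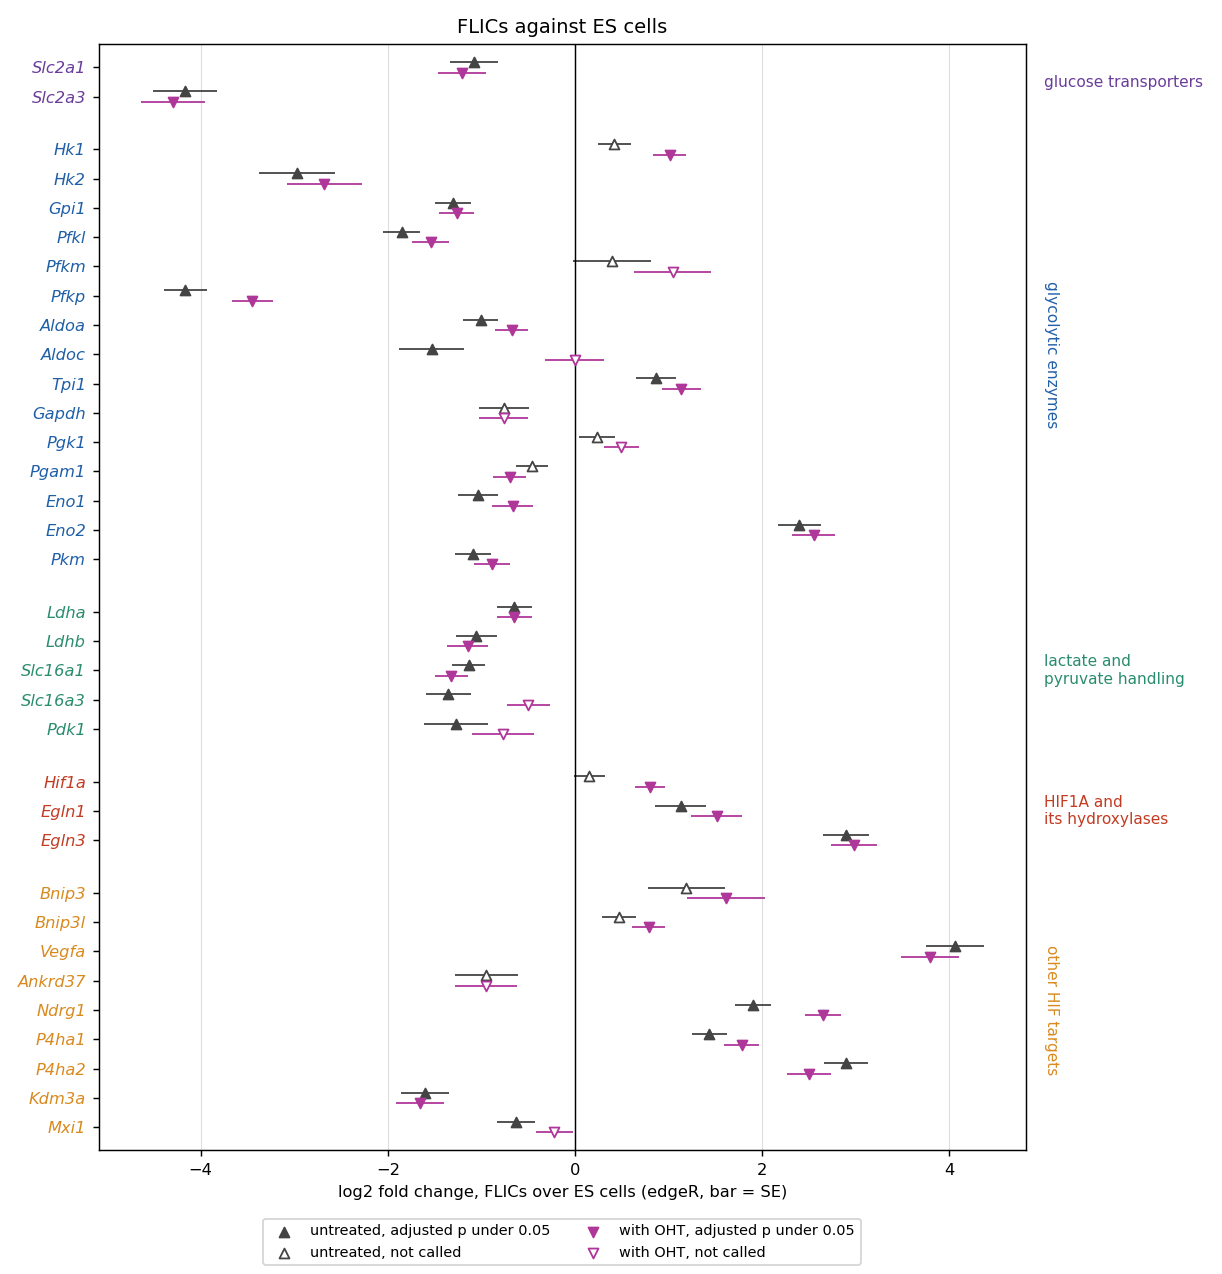
Log2 fold change of FLICs over ES cells for each gene (x axis, bar = SE from edgeR), without OHT (upward triangles) and with OHT (downward triangles), filled where the adjusted p was under 0.05. Transporters, most enzymes and lactate genes lie left of 0, and Egln1, Egln3, Vegfa, Ndrg1, P4ha1 and P4ha2 lie right of 0 in both conditions.

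With OHT in both cell types, the same contrast used the 3 other libraries. It came from the same fit, with the same spread from the ES cells, and is no independent repeat. Of the 34 genes 26 were called, 14 lower and 12 higher, where 57.7% of all tested genes were called (29.3% lower, 28.4% higher), and the median was -0.57 against -0.07 over all tested genes. Slc2a3 (-4.30), Pfkp (-3.45), Hk2 (-2.68), Kdm3a (-1.66) and Pfkl (-1.54) were again lower, and Vegfa (3.80), Egln3 (2.98), Ndrg1 (2.65), Eno2 (2.55) and P4ha2 (2.50) higher. Of these, Pfkp had an SE of 0.22 and an edgeR adjusted p of 0.000132, and Ndrg1 an SE of 0.19 and an edgeR adjusted p of 0.000199. Hif1a (0.80), Hk1 (1.01), Bnip3 (1.61) and Bnip3l (0.79) were called higher here, and Pgam1 (-0.70) lower. Hif1a stood at 157 and 148 CPM in OHT-treated ES cells and at 266 CPM in OHT-treated FLICs (SE 0.16, edgeR adjusted p = 0.00772). Slc16a3 (-0.50), Pdk1 (-0.77), Aldoc (-0.0040) and Mxi1 (-0.22) were not called. Of the 26 calls, 19 (10 higher, 9 lower) held with each ES cell library left out and in every other setting. Bnip3l, Hif1a, Eno1, Ldha, Aldoa, Pkm and Pgam1 were lost without untreated replicate 1 or 2, with adjusted p up to 0.132 for Eno1.

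Over both conditions, 18 of the 34 genes had both FLICs libraries below all 4 ES cell libraries, and 14 had both above, where 39.5% and 36.6% of all tested genes did so. The FLICs and ES cell values overlapped for Aldoc and Slc16a3.

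Several genes encode isoenzymes of the same step, and their shares of a family were compared by library. Hk1 made up 13.7% and 15.3% of hexokinase CPM per kilobase in untreated ES cells (95% Wilson intervals 13.2 to 14.2% and 14.8 to 15.8%), 16.2% and 22.3% with OHT, and 63.9% and 74.5% in FLICs without and with OHT (62.6 to 65.2% and 73.4 to 75.5%). Hk2 thus held the larger share in each ES cell library and Hk1 in both FLICs libraries. Pfkp held 40.7% and 39.8% of phosphofructokinase in untreated ES cells and 8.22% and 9.54% in FLICs, while Pfkm, the muscle type, held 7.03% and 9.16% in untreated ES cells and 39.2% and 48.4% in FLICs. Pfkm itself was at 39.0 and 52.97 CPM in untreated ES cells and 60.6 and 71.9 CPM in FLICs, so that its share was higher beside a lower Pfkp and Pfkl. P4ha2 made up 19.6% and 22.3% of the collagen prolyl hydroxylase pair in untreated ES cells, 34.5% and 35.2% with OHT, and 42.4% and 46.8% in FLICs. Egln3 made up 7.74% and 9.39% of the Egln1 and Egln3 sum in untreated ES cells and 24.2% and 24.5% in FLICs. Aldoa made up at least 98.2% of its family with Aldoc in each library and Eno1 at least 95.9% with Eno2. Their levels are uncertain, since reads may be shared with near-copies: the count of Eno1b was 2.27 to 2.44 times that of Eno1, and those of Aldoart1 and Aldoart2 were 0.266 to 0.292 and 0.152 to 0.171 times that of Aldoa. With the near-copies summed in, Eno1 had a log2 fold change of -1.02 between untreated FLICs and ES cells, and Aldoa an edgeR adjusted p of 0.00636. Gapdh, Pgk1, Ldha and other enzymes also have near-identical pseudogenes, so their levels carry the same doubt. The intervals cover counting error only, and no test of the shares was made.

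**Figure D3:**
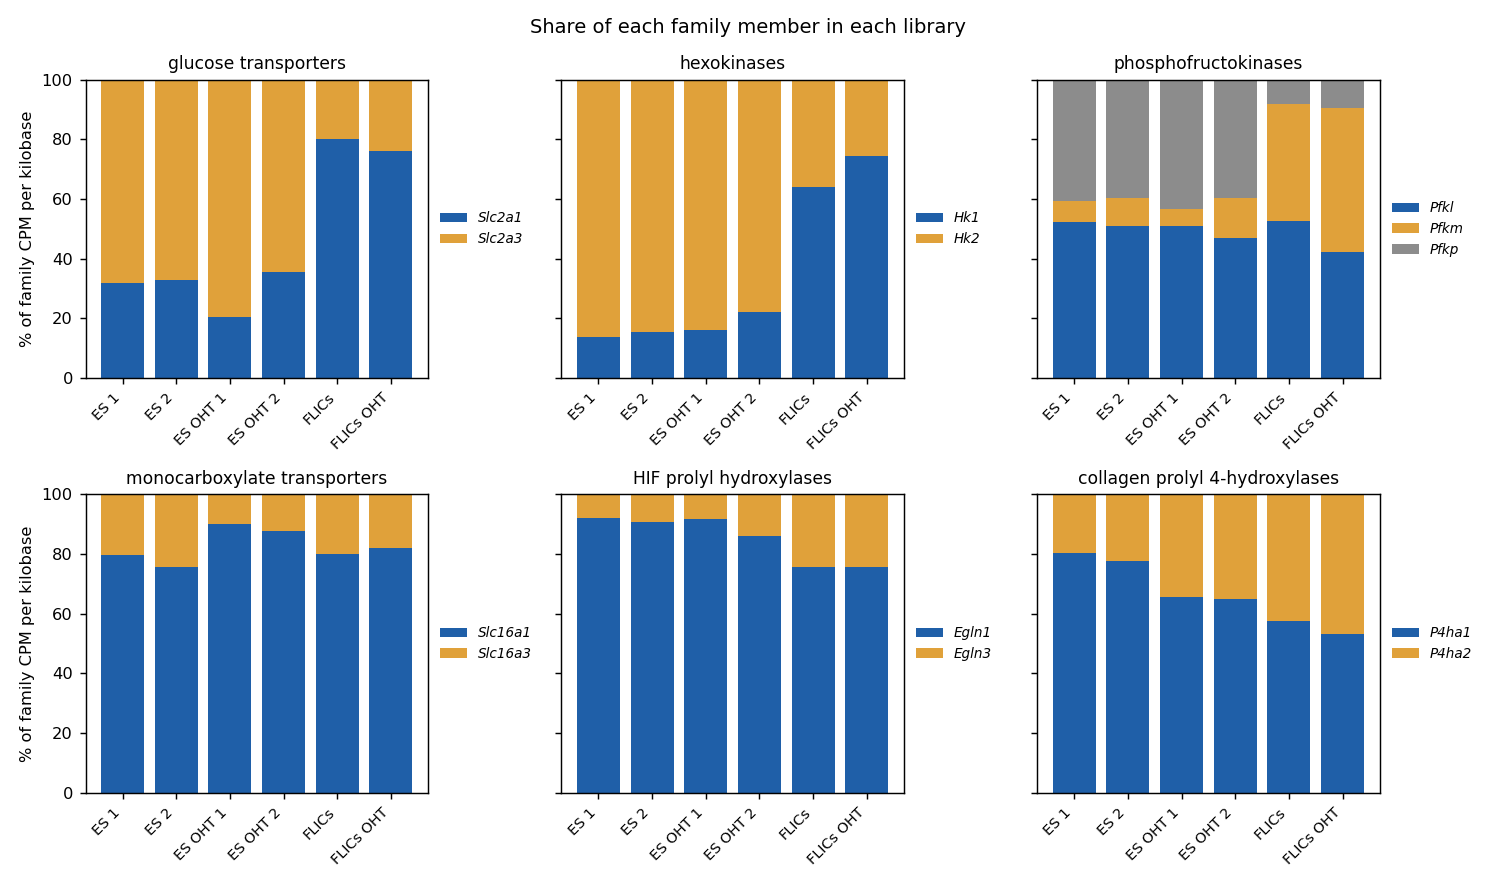
Share of each family member in the CPM per kilobase of its family (y axis, percent) in each of the 6 libraries (x axis) for 6 families. Slc2a1 and Hk1 fill most of the bars only in FLICs, and the P4ha2 share is larger in OHT-treated than in untreated ES cells.

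In the main edgeR fit (low counts filtered, TMM scaling, no replicate block), OHT in ES cells gave no call among the 34 genes, where 0.534% of all tested genes were called. Of the 15 glycolytic enzymes, 14 had a log2 fold change below 0, with a median of -0.35. Over all 34 genes 25 were below 0 (50.7% of all tested genes were) and the median was -0.25, against -0.01 over all tested genes. The 15 enzymes summed to 7134 and 6366 CPM with OHT, below both untreated libraries. Of these sums Pkm made up 3101 and 2774 CPM. At an unadjusted p under 0.05 there were 10 of 34 genes, 8 lower and 2 higher, against 18.3% of all tested genes (7.79% lower, 10.5% higher). DESeq2 called 3 of the 34, Slc16a3, Pfkl and P4ha2, where it called 2.54% of the genes it tested. Of 6 markers of the 2-cell-like state, 5 were called higher with OHT, and their sum went from 8.904 and 9.396 CPM to 192 and 149 CPM. Trophoblast markers went from 94.0 and 98.3 to 144 and 142 CPM (1 of 5 called, higher), and primitive endoderm markers from 5.00 and 5.19 to 12.4 and 9.25 CPM (0 of 5 called by edgeR, 3 at an unadjusted p under 0.05). All 8 tested fibroblast markers had log2 fold changes above 0, with 0 called and 1 at an unadjusted p under 0.05, and sums of 8.44 and 8.92 CPM untreated and 11.2 and 13.3 CPM with OHT. The part of these markers in the values was not tested. The values of the OHT-treated and untreated libraries did not overlap for 19 of the 34, 16 lower and 3 higher, where 52.8% of all tested genes did not overlap (27.6% lower, 25.2% higher).

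Slc16a3 had the smallest p. It was at 36.9 and 46.9 CPM untreated (41.9 ± 7.06 CPM, SD, n = 2) and at 16.0 and 18.4 CPM with OHT (17.2 ± 1.73 CPM, SD, n = 2), so both treated libraries were below both untreated ones and close to the 16.4 CPM of untreated FLICs. Its log2 fold change was -1.29 (SE 0.19, edgeR adjusted p = 0.0599, DESeq2 adjusted p = 0.000161), and the adjusted p ran from 6.7e-19 to 0.562 over the other settings. Its partner Slc16a1 was at 152 and 152 CPM untreated and 152 and 138 CPM with OHT (log2 fold change -0.07), and the share of Slc16a3 in the 2 carriers per kilobase was 20.3% and 24.5% untreated and 9.92% and 12.3% with OHT.

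Pfkl, Pfkp and both hexokinase genes also had lower values in both OHT-treated than in both untreated ES cell libraries, without being called in the main edgeR fit. With the replicate number as a block, Pfkl and Hk2 were called. Pfkl (chromosome 10, 77986947 to 78010083) was at 272 and 277 CPM untreated and 185 and 157 CPM with OHT (log2 fold change -0.68, SE 0.15, edgeR adjusted p = 0.127, DESeq2 adjusted p = 0.0218, and from 8.9e-09 to 0.933 over the other settings). Pfkp was at 238 and 242 CPM untreated and 177 and 150 CPM with OHT (log2 fold change -0.55, SE 0.15, edgeR adjusted p = 0.162). Hk2 was at 481 and 432 CPM untreated and 321 and 179 CPM with OHT (log2 fold change -0.87, SE 0.28, edgeR adjusted p = 0.207, and from 4.7e-21 without OHT replicate 1 to 1.0 without untreated replicate 1), and Hk1 at 88.7 and 90.3 CPM untreated and 71.6 and 59.3 CPM with OHT (-0.45, edgeR adjusted p = 0.209). The second treated library held 0.557 times the Hk2 level of the first, and both were below the untreated libraries. Eno1 was at 683 and 661 CPM untreated and 540 and 423 CPM with OHT (-0.48, edgeR adjusted p = 0.233). Pgam1 was the enzyme above 0, at 315 and 288 CPM untreated and 310 and 317 CPM with OHT.

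The hypoxia genes had no common direction in ES cells with OHT. Hif1a was at 210 and 204 CPM untreated and 157 and 148 CPM with OHT, below the untreated libraries in both cases (log2 fold change -0.44, SE 0.13, edgeR adjusted p = 0.193). P4ha2 was at 7.58 and 10.0 CPM untreated and 14.1 and 17.96 CPM with OHT, above them in both cases (log2 fold change 0.86, SE 0.21, edgeR adjusted p = 0.149, DESeq2 adjusted p = 0.0250, and from 4.6e-11 to 0.995 over the other settings). Ldhb was the other gene above 0 at an unadjusted p under 0.05, at 72.8 and 77.4 CPM untreated and 89.1 and 117 CPM with OHT (log2 fold change 0.45). Vegfa, Ndrg1, Bnip3l, Mxi1 and Kdm3a had log2 fold changes from 0.06 to 0.14, and Ankrd37, P4ha1, Egln3, Bnip3 and Egln1 from -0.13 to -0.52.

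Scaling by total counts moved the median of all genes to 0.13 and that of the 34 genes to -0.11, with 21 of 34 genes and 13 of 15 enzymes below 0. Without OHT replicate 1 or 2, where the spread comes from the close untreated pair alone, 16 (13 lower, 3 higher) and 14 (11 lower, 3 higher) of the 34 were called, where 40.2% and 28.7% of all tested genes were, and 13 and 12 of the 15 enzymes were below 0.

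**Figure D4:**
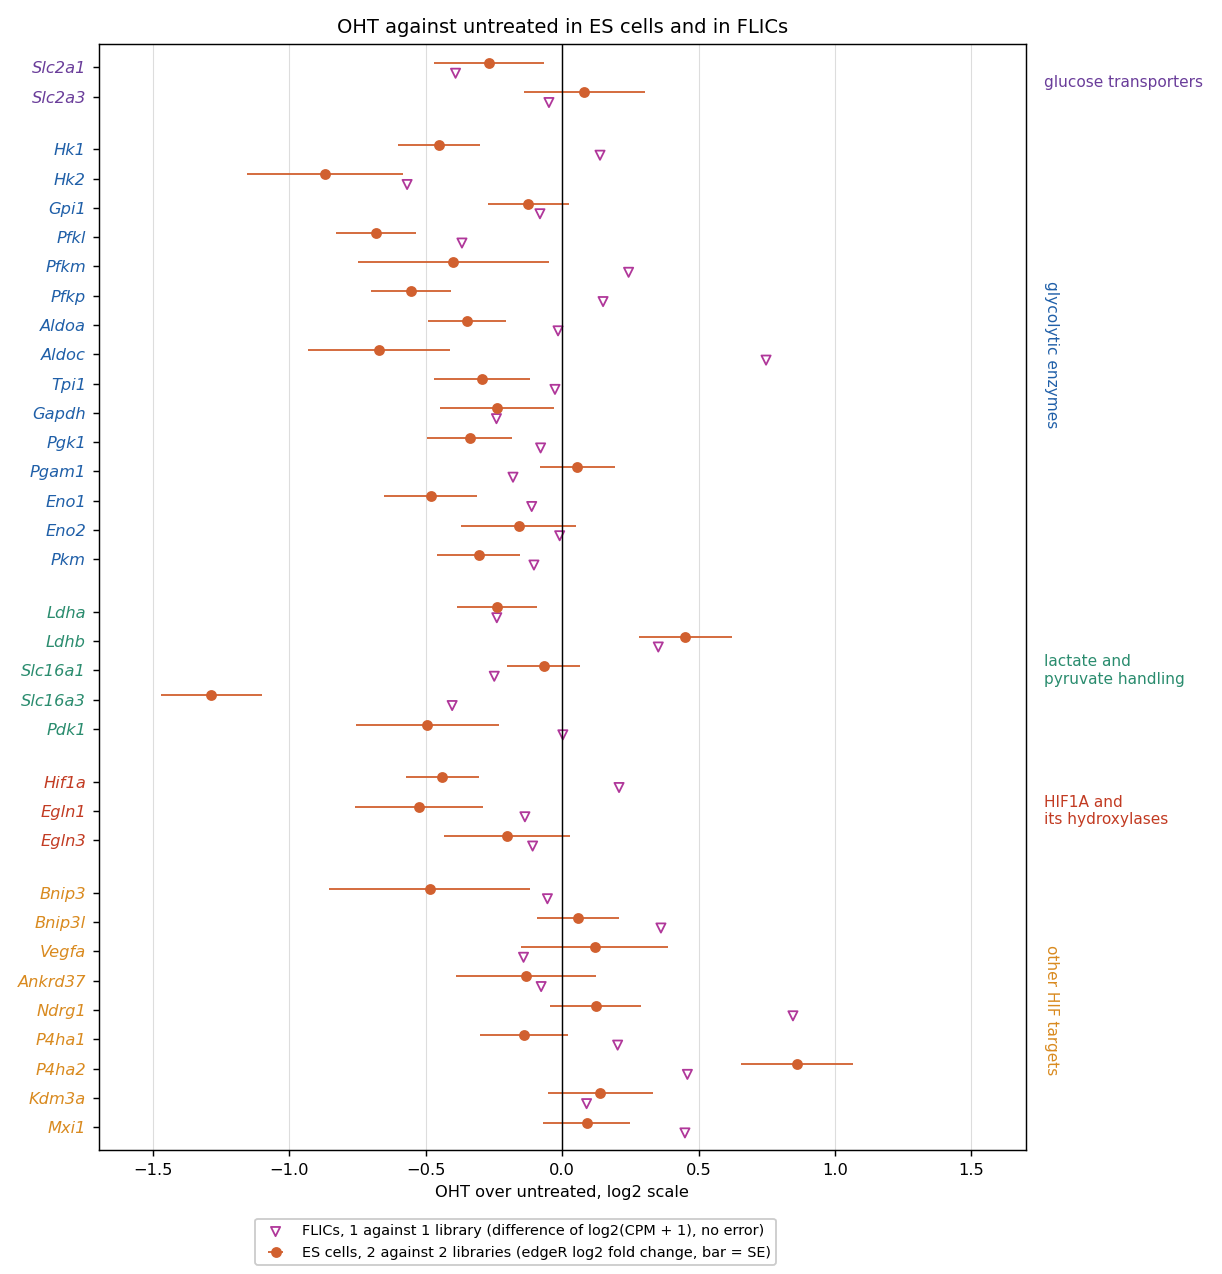
Difference of OHT-treated from untreated cells for each gene on a log2 scale (x axis), in ES cells (filled circles, edgeR log2 fold change with SE) and in FLICs (open triangles, difference of log2(CPM + 1) between 1 library each). Slc16a3 lies furthest left and P4ha2 furthest right in ES cells, and no gene reached a 2-fold difference in FLICs.

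For OHT in FLICs there was 1 library on each side, so these differences have no replicate check. None of the 34 genes differed by 2-fold or more on log2(CPM + 1), where 0.526% of 11789 genes averaging 1 CPM or more did, and the median difference was -0.05 against 0.03 over those genes. The difference was below 0 for 21 of the 34, and for 43.6% of those genes. The 5 largest differences were those of Ndrg1 at 23.6 and 43.3 CPM without and with OHT (0.85), Aldoc at 5.16 and 9.33 CPM (0.75), Hk2 at 58.4 and 39.0 CPM (-0.57), P4ha2 at 65.6 and 90.5 CPM (0.46) and Mxi1 at 8.27 and 11.7 CPM (0.45). Slc16a3 was at 16.4 and 12.2 CPM (-0.40), and Hif1a at 230 and 266 CPM (0.21).

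The difference between the OHT responses of FLICs and of ES cells was tested as an interaction and called none of the 34 genes, nor any other gene (0.0% of 15535). At an unadjusted p under 0.05 there were 5 of the 34, each with a difference above 0, against 6.8% of all tested genes (3.57% above 0). These were Aldoc (1.53, SE 0.46), Slc16a3 (0.85, SE 0.32), Ndrg1 (0.75, SE 0.28), Pfkp (0.72, SE 0.26) and Hif1a (0.65, SE 0.23). Their edgeR adjusted p ran from 0.649 to 0.707. In the values that follow, those of ES cells are edgeR log2 fold changes and those of FLICs are differences of log2(CPM + 1). They are unlike measures, so they do not subtract exactly to the tested difference. Slc16a3 was lower with OHT in both cell types, at -1.29 in ES cells and -0.40 in FLICs. The values in ES cells and FLICs were -0.67 and 0.75 for Aldoc and 0.12 and 0.85 for Ndrg1. They were -0.55 and 0.15 for Pfkp and -0.44 and 0.21 for Hif1a. DESeq2 called none of the 34 either, and 0.176% of the genes it tested. Without OHT-treated ES cell replicate 1 or 2 the interaction called 12 (10 higher, 2 lower) and 6 (6 higher) of the 34, where 18.3% and 13.4% of all tested genes were called.

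Other genes of the same pathways were counted from 4 fixed lists, and their counts stand against 28.7% lower and 26.2% higher among all tested genes without OHT. Of 27 other glycolysis genes tested, 9 were lower and 5 higher in FLICs without OHT. Tigar, a phosphatase that draws sugar phosphates away from glycolysis, was at 186 and 154 CPM in untreated ES cells and 23.6 CPM in untreated FLICs (log2 fold change -2.85, edgeR adjusted p = 0.000249). Ldhd, the D-lactate dehydrogenase, was at 2.58 and 2.66 CPM in untreated ES cells and at 0.0309 CPM, under the limit for a count of 0, in untreated FLICs. Pklr and Ldhc had no count in FLICs, and stood at 1.46 and 1.86 CPM (Pklr) and at 1.36 and 1.38 CPM (Ldhc) in untreated ES cells. Of 30 genes of pyruvate entry and the citric acid cycle, 9 were higher and 6 lower. Pdk4, the starvation-induced relative of Pdk1, was at 2.35 and 2.40 CPM in untreated ES cells and 44.3 CPM in untreated FLICs (4.22, edgeR adjusted p = 9.4e-05), opposite in sign to Pdk1. Its opponent Pdp1 (2.01), the pyruvate carrier gene Mpc2 (1.63) and pyruvate carboxylase, Pcx (-1.40), were called too.

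Among 16 other components of the HIF pathway, 4 were higher and 5 lower in untreated FLICs. Epas1, which encodes HIF2A, was at 94.3 and 91.6 CPM in untreated ES cells and at 0.124 and 0.297 CPM in the untreated and the OHT-treated FLICs library (log2 fold change without OHT -9.51, SE 0.57, edgeR adjusted p = 0.000118). Arnt2, a relative of the HIF partner ARNT, was at 0.927 and 0.719 CPM in untreated ES cells and 5.68 CPM in untreated FLICs (2.79), and Cited2 (1.58), which competes with HIF for its coactivators, and Eloc (0.96), part of the VHL ligase, were higher. Of 39 other HIF targets tested, 14 were higher and 10 lower in untreated FLICs. Loxl2, a collagen cross-linking enzyme, was at 0.463 and 0.852 CPM in untreated ES cells and 265 CPM in untreated FLICs (8.62), and Anxa2 at 23.4, 20.1 and 1547 CPM in the same libraries (6.15). The metallothioneins Mt2 (-6.25) and Mt1 (-3.98) were lower. With OHT in both cell types, the 4 lists in the same order had 8 higher and 8 lower, 11 higher and 1 lower, 5 higher and 4 lower, and 16 higher and 14 lower, against 28.4% higher and 29.3% lower of all tested genes. With OHT in ES cells, none of these 4 lists had a called gene with edgeR, and 4 of 27, 5 of 30, 0 of 16 and 11 of 39 had an unadjusted p under 0.05, against 18.3% of all tested genes. Of the 39 other HIF targets, 9 were above 0 and 2 below at that p, where 10.5% and 7.79% of all tested genes were. Among the 9 were Ppp1r3c (2.24), Flt1 (1.14), Bhlhe41 (2.06) and Hmox1 (0.82), none of them called.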

How the data were processed

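RNA from 6 libraries (2 untreated and 2 OHT-treated ES cell libraries, 1 untreated and 1 OHT-treated FLICs library) was prepared with a stranded kit for total RNA, per the labels' protocols. As values the authors deposited whole-number counts per gene for the 6 libraries with a gene length. Salmon, DESeq2 and the build GRCm38 are named in the submitters' processing notes, with neither version nor role. Of the 22600 genes, 22509 were matched to a symbol, and 91 were not. Of the gene lengths, 77.6% are multiples of 3. No per-sample column was left unused. Of 2 gene models named Aldoa the main one was used. The other had at most 46 counts.

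The counts were fitted with edgeR 4.0.16 in R 4.3.3 (limma 3.58.1): filterByExpr by group kept 15535 genes, TMM scaling, 1 mean per group over all 6 libraries and the quasi-likelihood test, with Benjamini-Hochberg adjustment over all genes kept and calls at an adjusted p under 0.05. Its 2 residual degrees of freedom come from the ES cells. OHT in FLICs has no test: a difference of at least 2-fold on log2(CPM + 1) with a mean of at least 1 CPM was the size rule. CPM are counts scaled to the effective library size, the total times its TMM factor. Isoenzyme shares use CPM per kilobase, with Wilson intervals. Alternatives were RLE scaling, total counts, DESeq2 1.42.0, no count filter, 5 CPM in 2 libraries, a replicate block, ES cell libraries only, each ES cell library left out, a pseudocount of 0.5 CPM and, chosen after seeing the data, near-copies summed. The fitting steps were tested on simulated data.

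The genes, the other lists and the markers were chosen with earlier results of these data known, and the grouping by role was made after the values were seen. All 34 genes could be named. Called genes were described by role with up to 12 per direction in full. Where fewer than 5 were called, the 8 with the smallest unadjusted p were given, for OHT in FLICs the 5 largest differences, and for each other list up to 4 genes with the smallest unadjusted p.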

Additional observations from a re-analysis of the deposited data

How the results depend on the processing

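For OHT in ES cells the 0 calls among the 34 genes stayed at 0 with RLE scaling, total counts, the 5 CPM filter (which left 33 of the genes) and without either untreated library. They became 3 with DESeq2, 1 with no count filter (Slc16a3) and 1 with ES cell libraries only (Slc16a3), and ran from 0 to 16 with a library left out. With the replicate block there were 4 (Slc16a3, Pfkl and Hk2 lower, P4ha2 higher), where 7.76% of all tested genes were called. The numbers are not known to pair the libraries: the deviations of same-numbered ES cell libraries correlated at 0.345, over only 2 pairs. For untreated FLICs against ES cells the 25 calls ran from 16 to 32 with an ES cell library left out and were 25 to 27 otherwise. With OHT the 26 calls ran from 19 to 32 and were 26 to 30 otherwise. The response difference ran from 0 to 12 with a library left out and stayed at 0 otherwise. Leaving out an OHT-treated ES cell library leaves the spread to the untreated pair alone, and leaving out an untreated one leaves it to the OHT-treated pair. Other causes were not tested. Single-gene results under an alternative were counted only for genes chosen by their result in the main fit. For FLICs against ES cells these were the 25 and 26 called genes, which could lose a call but not gain one. For the OHT comparisons they were the 8 with the smallest unadjusted p or the 5 largest differences, which could gain a call but not lose one. Of these 765 results, 697 kept their direction and side of the threshold, 34 gained a call, 34 lost one and 0 reversed. Changes among the other genes are not in these counts. With 1 FLICs library per condition, no spread between FLICs libraries was measured.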
